A study of Mus musculus with 2 samples.

Results

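The 6 genes described here encode the channel proteins that join neighboring cells or open to the space around them: Panx1, Panx3, Gja1, Gja4, Gja5 and Gjc1. They were chosen by symbol, with earlier results of these data known, out of 28006 features of the count tables. Each was followed over the reticular, preosteoblast, osteoblast, periosteal and endothelial cells among 7332 single cells from mouse femurs. The cells were Cxcl12-GFP+ cells sorted at postnatal day 28 from 2 animals, Mouse #1 and Mouse #2, which formed 1 group with 1 library each. Both mice carried GFP at 1 Cxcl12 allele, a Cxcl12 creER transgene and 1 R26R-tdTomato allele, and both received tamoxifen at postnatal day 21. Cxcl12 is disrupted on the GFP allele, so no wild-type cell was in the data. The tdTomato label marks cells in which the creER transgene acted, and their progeny. The study also found tdTomato+ cells in some mice without tamoxifen, nearly all of them in the fraction with blood or endothelial surface markers. One field of the labels gives the sort as tdTomato+, while the other fields and the study's methods give GFP+. The libraries were treated as GFP+ sorts.

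A gap junction is a channel that spans the membranes of a pair of touching cells and lets ions and small messengers pass between them. It is built from connexins, which are named by mass as proteins and by family as genes: Gja1 encodes connexin 43, Gja4 connexin 37, Gja5 connexin 40 and Gjc1 connexin 45. Pannexins are related in fold, sit mostly in single membranes, and release ATP. Connexin 43 is the main connexin of bone-forming cells, where it couples osteoblasts and osteocytes. Connexins 37 and 40 are known for arterial endothelium, and Panx3 for cartilage and the osteoblast lineage.

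Mouse #1 gave 2750 cells with a median of 12966.5 UMIs (tagged single transcripts) and Mouse #2 gave 4582 cells with a median of 12190 UMIs. Libraries summed to 54940400 and 88790688 UMIs, and 7 barcodes occurred among the cells of both libraries. Clusters were named from fixed marker lists and are called "-like". They gave 1220 and 2377 reticular-like, 429 and 837 preosteoblast-like, 13 and 61 osteoblast-like, 81 and 241 periosteal-like, 124 and 110 arterial-like and 28 and 28 sinusoidal-like cells in Mouse #1 and Mouse #2. All 10 osteoblast markers had UMIs in the osteoblast-like cells of both mice, and their summed level was 103378 and 67756 CPM (UMIs per 1000000 UMIs of the class). The same list summed to 684 and 1638 CPM among preosteoblast-like cells. In the osteoblast-like cells, however, GFP transcripts stood at 54.6 and 228 CPM, below the 501 and 801 CPM of hematopoietic cells, whereas reticular-like cells had 12895 and 12611 CPM. Hematopoietic cells here and below are the myeloid-like, lymphoid-like and erythroid-like clusters, without the macrophage-like cells (21 and 21) and without unnamed clusters. Osteoblast-like cells were also deep, with medians of 41863 and 50483 UMIs. Arterial-like cells also held myeloid markers at 9823 and 6477 CPM in sum, mostly S100a8 and S100a9, and sinusoidal-like cells held reticular markers at 1850 and 3435 CPM and preosteoblast markers at 4142 and 3790 CPM, of which Col1a1 made up 2925 and 2822 CPM. In arterial-like cells these lists summed to 468 and 602 CPM and to 174 and 673 CPM. The part of these RNAs in the levels below was not tested.

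Positions of the genes are those of the GENCODE M21 annotation on GRCm38, the assembly called mm10 in the submitters' processing notes. Panx3 (chr9:37659902-37669235, minus strand) and Panx1 (chr9:15002128-15045478, minus strand) lie on 1 chromosome. Gja1 lies at chr10:56377330-56402513 on the plus strand, Gja4 at chr4:127311421-127314039 on the minus strand and Gjc1 at chr11:102799579-102819700 on the minus strand. None of these 5 overlaps another gene. Gja5 (chr3:96904693-97077416, plus strand) overlaps genes of the minus strand, among them Gpr89, 9230114J08Rik and 4930573H18Rik, and whether counting used the strand is not given in the sources used here, so its level is less certain.

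The 250 bases before the transcription start come from RefSeq's start sites on GRCm38.p6. Gja4 and Gja5 are shown because they were found in the same arterial-like cells, and Gja1 and Panx1 because they differed in direction between reticular-like and preosteoblast-like cells. Capitals mark the motif matches described after the sequences.

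Gja4 (chr4:127314040-127314289, minus strand): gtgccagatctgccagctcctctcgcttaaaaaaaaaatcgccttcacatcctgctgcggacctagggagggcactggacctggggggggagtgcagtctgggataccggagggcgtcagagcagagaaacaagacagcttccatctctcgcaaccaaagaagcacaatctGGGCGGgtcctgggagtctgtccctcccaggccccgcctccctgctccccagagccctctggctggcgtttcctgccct
Gja5 (chr3:97032152-97032401, plus strand): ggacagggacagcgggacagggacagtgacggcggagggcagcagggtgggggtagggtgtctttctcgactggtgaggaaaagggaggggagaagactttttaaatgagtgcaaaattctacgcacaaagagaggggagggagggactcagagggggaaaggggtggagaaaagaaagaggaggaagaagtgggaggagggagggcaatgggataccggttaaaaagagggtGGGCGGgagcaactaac
Gja1 (chr10:56377050-56377299, plus strand): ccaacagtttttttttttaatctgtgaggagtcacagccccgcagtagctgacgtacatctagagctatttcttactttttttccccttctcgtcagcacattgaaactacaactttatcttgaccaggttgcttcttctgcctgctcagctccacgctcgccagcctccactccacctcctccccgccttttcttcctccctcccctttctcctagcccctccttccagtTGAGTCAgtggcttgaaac
Panx1 (chr9:15045479-15045728, minus strand): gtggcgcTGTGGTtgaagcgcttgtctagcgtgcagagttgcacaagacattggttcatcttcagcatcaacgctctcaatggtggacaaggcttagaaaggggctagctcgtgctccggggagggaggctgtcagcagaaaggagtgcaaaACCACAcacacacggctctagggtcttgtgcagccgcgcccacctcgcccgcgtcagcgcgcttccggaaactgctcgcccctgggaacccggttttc

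RefSeq entries matched these 4 of the 6 genes. Exact letters were searched on both strands. The GC box, GGGCGG, began 79 bases before the start of Gja4 and 17 bases before that of Gja5, and 32.7% of the 32851 promoters in the table hold one. In Gja1 the AP-1 letters TGAGTCA began 19 bases before the start, and 4.46% of promoters hold them. Panx1 held the Runx core TGTGGT 243 bases before the start and its reverse complement at 98 bases, which none of the other 3 did, and 14.05% of promoters hold it. The TATA box letters TATAAA were in none of the 4 and are in 12.4% of all promoters. These matches describe letters and not bound sites.

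Panx3 was found in the bone-forming classes. Osteoblast-like cells had 42.9 CPM in Mouse #1 (22 UMIs, 95% Poisson interval 26.9 to 65.0) and 64.9 CPM in Mouse #2 (178 UMIs, 55.7 to 75.2). Preosteoblast-like cells had 26.7 CPM (195 UMIs, 23.1 to 30.8) and 29.2 CPM (443 UMIs, 26.6 to 32.1). Both mice placed osteoblast-like above preosteoblast-like cells, by 1.60 times and 2.22 times, and the levels of the mice did not overlap between these classes, although the counting intervals did in Mouse #1. In Mouse #1, 1 of the 13 osteoblast-like cells held 8 of the 22 UMIs and 7 cells had none. The order in that mouse thus rests on few cells. Reticular-like cells had 0.247 and 0.405 CPM, or 4 and 12 UMIs in all, beside 0.464 and 0.400 CPM among hematopoietic cells, and this is read as background. Free RNA, taken from barcodes with 1 to 100 UMIs, held Panx3 at 5.63 and 21.01 CPM.

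In the other classes Panx3 rested on single cells. All 4 UMIs in sinusoidal-like cells of Mouse #1 were in 1 cell, as were all 6 UMIs in arterial-like cells of Mouse #2, and the endothelial-like cells were otherwise at 0. With the cells of highest Scrublet doublet score left out, both endothelial-like classes stood at 0. Periosteal-like cells had no Panx3 UMI in Mouse #1, which allows up to 2.06 CPM, and 9 UMIs in 5 of 241 cells in Mouse #2.

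**Figure D1:**
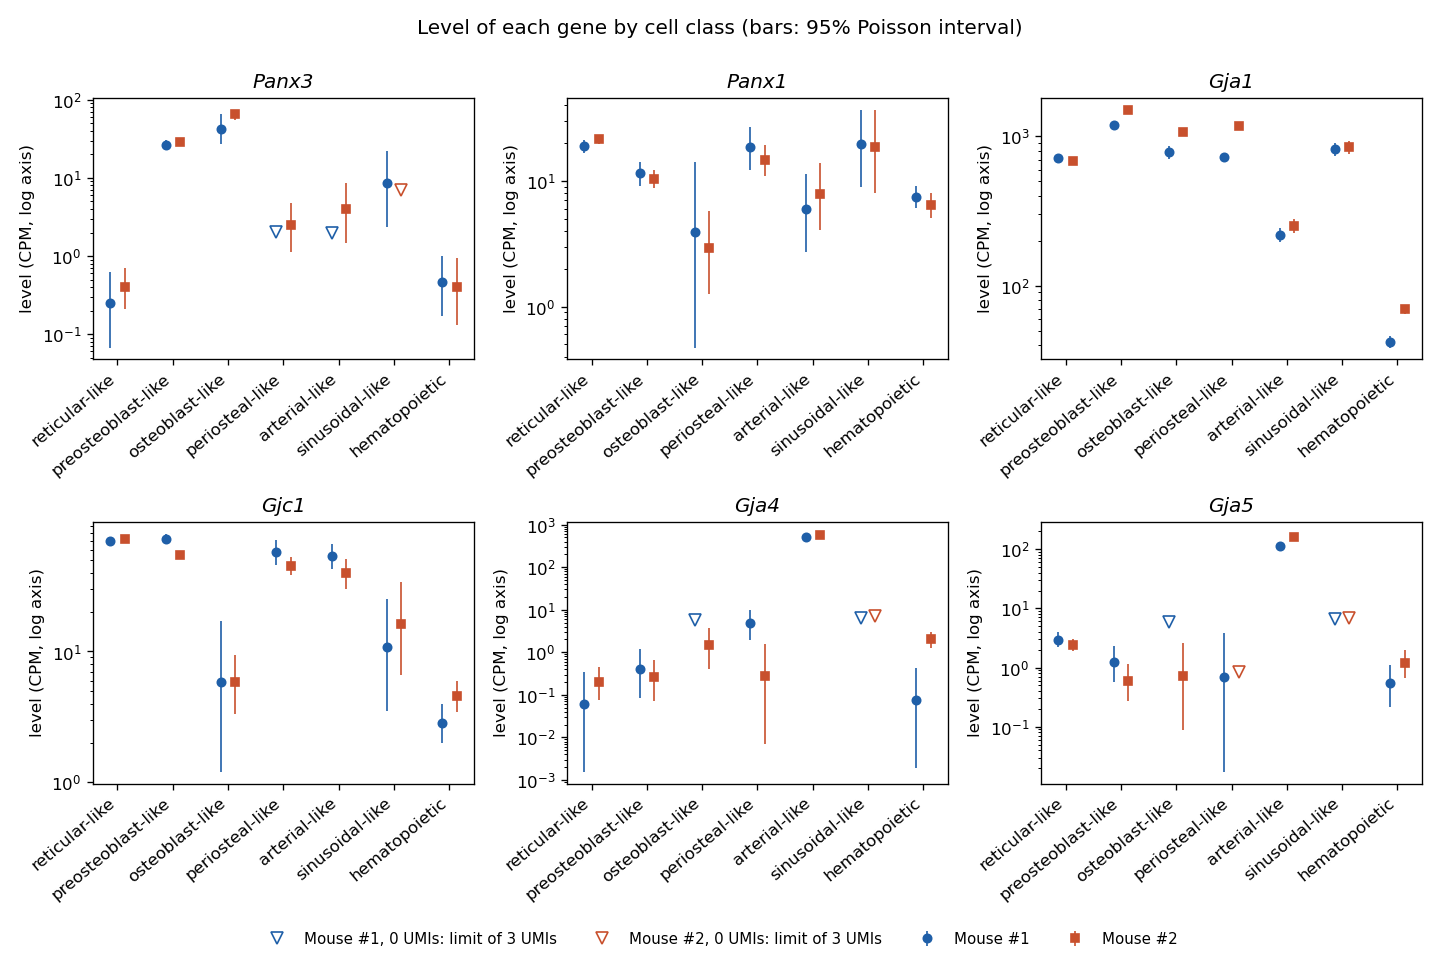
Level of each gene in CPM on log axes, for the 6 classes and for hematopoietic cells (myeloid-like, lymphoid-like and erythroid-like), with 1 point per mouse and 95% Poisson intervals. Open triangles stand at the limit of 3 UMIs for a class with 0 UMIs. Panx3 stands at 26.7 CPM or more in preosteoblast-like and osteoblast-like cells and at 8.67 CPM or less in the other classes shown, and Gja4 and Gja5 stand out in arterial-like cells alone.

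Fitted on sums per mouse with TMM scaling, which sets the bulk of genes equal, the log2 fold change of Panx3 was 6.25 ± 0.23 (SE, n = 2 mice per class) from the reticular-like to the preosteoblast-like class and 1.90 ± 0.19 onward to the osteoblast-like class. By share of all UMIs, the scale of the levels in CPM, the latter was 1.05. These contrasts were known when the gene was chosen, so they are given without a test. The first of them starts from 4 and 12 reticular-like UMIs, a level read as background (above), so its size depends on that background. SE here and below was derived from the fit, as the log2 fold change divided by the square root of its quasi-likelihood F value. It is approximate and can be smaller than counting error where UMIs are few. Both preosteoblast-like clusters held it at levels that overlapped between mice. Cluster 1, led by Npy and Spp1, had 27.6 and 28.8 CPM, and cluster 3, whose leading genes include Kcnk2, had 25.5 and 31.1 CPM. Thinned to 2000 UMIs per cell, 5.84% (95% Wilson interval 3.99 to 8.48%) and 5.64% (4.27 to 7.42%) of preosteoblast-like cells had a Panx3 UMI. Among hematopoietic cells this was 0.145% in Mouse #1 and 0 of 673 cells in Mouse #2 (95% Wilson interval up to 0.568%). Without thinning the shares were 19.6% and 24.0% of preosteoblast-like against 0.434% and 0.593% of hematopoietic cells, at median depths of 15457 and 16260 against 12357 and 10642 UMIs. Thinned osteoblast-like cells had Panx3 in 1 of 13 and 10 of 61 cells (16.4%, 9.16 to 27.6%), and unthinned cells in 6 of 13 and 43 of 61. Intervals and limits here cover counting error only.

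Panx3 UMIs were uneven within the preosteoblast-like class, where the tenth of cells with the most held 77.9% and 70.2% of them and the highest cells held 11 and 12 UMIs. The cells with and without a Panx3 UMI were therefore compared, a cell with one being matched to a cell of the same mouse and cluster within 10% of its total UMIs. This gave 84 pairs in Mouse #1, for all 84 cells with a Panx3 UMI, and 198 pairs in Mouse #2, for 198 of 201 such cells. This is a description of cells chosen by their own counts. Ifitm5, a membrane protein of mineralizing osteoblasts, was higher beside Panx3 by log2 ratios of 2.15 in Mouse #1 (31 against 7 UMIs) and 1.91 in Mouse #2 (105 against 28 UMIs). Sp7, the transcription factor of osteoblast commitment, differed by 1.08 and 0.59, Col1a1 (collagen I) by 0.99 and 0.62, Alpl (alkaline phosphatase) by 0.77 and 0.35 and Runx2 by 0.68 and 0.21. Genes of the reticular program were lower: Cxcl12 by -1.03 and -0.59, Lepr by -0.95 and -0.32 and Adipoq by -1.22 and -0.45. Of 16 genes in the panel, 8 osteoblast-lineage genes (Ibsp, Postn and Bglap besides those named) and Gja1 were higher and all 3 reticular genes were lower in both mice. Spp1 (0.19 and -0.82), Phex, Dlx5 and Dmp1 went opposite ways in the mice. Bglap was higher by 1.70 in Mouse #1 and by 0.013 in Mouse #2. Ibsp and Postn were higher by 0.87 and 1.27 in Mouse #1 but by only 0.087 and 0.099 in Mouse #2.

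**Figure D2:**
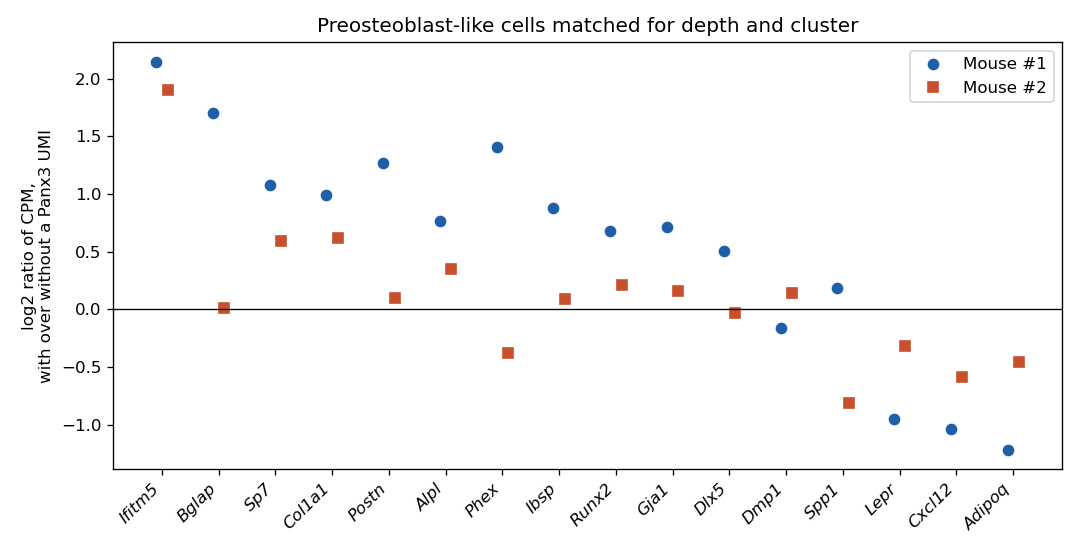
Log2 ratio of CPM between preosteoblast-like cells with and without a Panx3 UMI, matched for depth and cluster, for 12 osteoblast-lineage genes, Gja1 and 3 reticular genes, with 1 point per mouse. Ifitm5 is highest in both mice (2.15 and 1.91), and Cxcl12, Lepr and Adipoq lie below 0 in both.

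Among the named classes Panx1, the widely expressed pannexin, was highest outside the bone-forming ones. An unnamed cluster with most preosteoblast markers raised had 21.8 and 24.2 CPM (below). Reticular-like cells had 18.9 and 21.5 CPM, sinusoidal-like cells 19.5 and 18.7 CPM from 9 and 8 UMIs, and the periosteal-like class held 18.5 and 14.7 CPM. Reticular-like and sinusoidal-like cells overlapped between mice. Preosteoblast-like cells had 11.5 and 10.4 CPM, arterial-like cells 5.94 and 7.91 CPM and osteoblast-like cells 3.90 and 2.92 CPM (2 and 8 UMIs). Reticular-like cells exceeded preosteoblast-like cells by 1.64 times and 2.07 times. The log2 fold changes fitted with TMM were -0.96 ± 0.13 (SE) from reticular-like to preosteoblast-like and -0.98 ± 0.40 from preosteoblast-like to osteoblast-like cells (-1.81 by share of all UMIs), while those of Panx3 were positive. Hematopoietic cells had 7.50 and 6.40 CPM (6.08 to 9.15 and 5.07 to 7.96), whose intervals overlap those of osteoblast-like cells (0.473 to 14.1 and 1.26 to 5.75 CPM) in both mice. The hematopoietic clusters, as defined above, ranged from 0 to 27.2 CPM, so that their sum is not a background for Panx1. Free RNA had 15.9 and 10.6 CPM. Panx1 after thinning was in 4.93% and 3.96% of the reticular-like and 1.74% and 1.78% of the hematopoietic cells. Without thinning the shares were 21.6% and 21.2%, and 10.6% and 9.48%, at median depths of 12467 and 11608 UMIs in reticular-like cells.

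Gja1 was present in every class. By share of UMIs it was highest in the preosteoblast-like class, at 1196 CPM (Mouse #1) and 1495 CPM (Mouse #2). Osteoblast-like cells had 782 and 1076 CPM and the periosteal-like class 724 and 1180 CPM. Sinusoidal-like cells had 822 and 844 CPM and the reticular-like class 717 and 683 CPM. The levels of periosteal-like, osteoblast-like and sinusoidal-like cells overlapped between mice and are not ordered by these data. Arterial-like cells were lowest at 218 and 251 CPM, and sinusoidal-like cells exceeded them by 3.76 times and 3.36 times. Without the cells of highest Scrublet score, 1 and 4 of them sinusoidal-like, the mean sinusoidal-like level was 703 CPM. Hematopoietic cells had 42.0 and 69.3 CPM, and their clusters ranged from 3.75 to 156 CPM. Mouse #2 was above Mouse #1 in preosteoblast-like, osteoblast-like and periosteal-like cells beyond counting error (periosteal-like intervals 681 to 769 and 1145 to 1216 CPM) and below it in reticular-like cells.

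From reticular-like to preosteoblast-like cells, Gja1 differed by 1.67 times in Mouse #1 and 2.19 times in Mouse #2 by share of all UMIs, and the log2 fold change fitted with TMM was 0.88 ± 0.15 (SE, n = 2 mice per class). Cluster 3 had more (1543 and 1698 CPM) than cluster 1 (970 and 1443 CPM) of the preosteoblast-like cells. Among reticular-like clusters, cluster 2, whose leading genes include Adipoq, had 942 and 821 CPM against 667 and 666 CPM in cluster 0. Cluster 4, whose leading genes include the immediate-early genes Fos, Jun and Egr1, had 697 and 624 CPM and held 364 cells of Mouse #1 and 56 of Mouse #2. Thinned to 2000 UMIs, 81.5% (77.6 to 84.9%) and 87.8% (85.4 to 89.8%) of preosteoblast-like and 67.2% (64.6 to 69.8%) and 68.1% (66.2 to 69.9%) of reticular-like cells had a Gja1 UMI, against 4.92% and 7.28% of hematopoietic cells. Unthinned, these were 97.0% and 98.4%, 96.3% and 96.8%, and 12.7% and 23.6%. Free RNA held Gja1 at 560 and 695 CPM. All 84 and 201 preosteoblast-like cells with a Panx3 UMI, and all 6 and 43 such osteoblast-like cells, also had a Gja1 UMI. Over the whole class 97.0% and 98.4% of preosteoblast-like cells did.

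The step from preosteoblast-like to osteoblast-like cells depended on the scaling. In osteoblast-like cells the 50 most abundant genes took 54.2% and 48.4% of all UMIs, against 26.9% and 27.6% in preosteoblast-like cells, and Col1a1 alone stood at 123002 and 122762 CPM. By share of all UMIs, the log2 difference of Gja1 was -0.53, lower in osteoblast-like cells. TMM scaling moved every gene up by 0.91 in Mouse #1 and 0.82 in Mouse #2 and gave 0.33 ± 0.19 (SE), so no direction can be given for Gja1. Panx3 was higher under both scalings (1.90 with TMM, 1.05 by totals), and Gjc1 (-2.60 and -3.44) and Panx1 (-0.98 and -1.81) were lower under both. TMM moved the other contrasts by under 0.1.

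**Figure D3:**
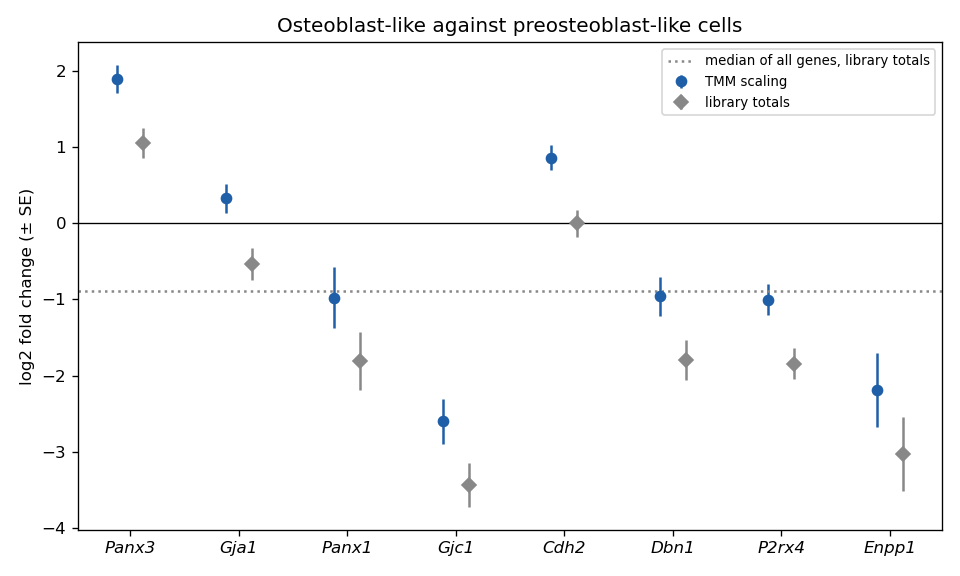
Log2 fold change with SE of osteoblast-like against preosteoblast-like cells, on TMM-scaled counts (circles) and on library totals (diamonds), for 4 of the described genes and 4 related genes that passed the test with TMM. The dotted line is the median of all genes by library totals (-0.89). Gja1 lies above 0 with TMM and below it by totals, while Panx3 lies above 0 and Gjc1 below it in both.

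Gjc1 was shared by marrow stroma and arterial-like cells and low in osteoblast-like cells. It was at 69.8 and 72.7 CPM in the reticular-like and 72.8 and 54.7 CPM in the preosteoblast-like class. The periosteal-like class held 57.6 and 45.1 CPM and the arterial-like class 53.4 and 39.5 CPM. Each of these neighbors overlapped the next between mice. Sinusoidal-like cells had 10.8 and 16.3 CPM, from 5 and 7 UMIs, and osteoblast-like cells 5.85 and 5.83 CPM, from 3 and 16 UMIs. Free RNA held 39.6 and 43.6 CPM. Hematopoietic cells had 2.86 and 4.56 CPM, within the intervals of osteoblast-like cells (1.21 to 17.1 and 3.33 to 9.47 CPM). Preosteoblast-like cells exceeded osteoblast-like cells by 12.4 times and 9.38 times by share of all UMIs. Toward osteoblast-like cells the fitted log2 fold change was -3.44 on that scale and -2.60 ± 0.30 (SE) with TMM. Cluster 3 of the preosteoblast-like cells again had more (84.4 and 80.6 CPM) than cluster 1 (65.3 and 48.2 CPM), and cluster 2 of the reticular-like cells had more (85.5 and 105 CPM) than cluster 0 (66.7 and 68.6 CPM). At 2000 UMIs per cell, Gjc1 was in 11.8% and 12.8% of the reticular-like but 0.434% and 1.34% of the hematopoietic cells (53.2% and 52.7%, and 3.04% and 5.63%, without thinning).

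Gja4 and Gja5 marked the arterial-like cells. Gja4 stood at 505 CPM in Mouse #1 (765 UMIs) and 572 CPM in Mouse #2 (868 UMIs), and 96.5% and 95.5% of all its UMIs in the cells of the 2 mice lay there. Gja4 is also among the leading genes of that cluster, although it was left out of the genes used for clustering. Sinusoidal-like cells had no Gja4 UMI in either mouse, so arterial-like cells were at least 77.6 times and at least 81.7 times higher against a limit of 3 UMIs per library. The other named classes stood at or below 4.8 CPM, and that value came from 7 UMIs in 2 periosteal-like cells. Reticular-like cells had 1 and 6 UMIs. Gja5 stood at 113 and 161 CPM in arterial-like cells (172 and 244 UMIs) and at 0 in sinusoidal-like cells of both mice. Against the same limit it was at least 17.4 times and at least 23.0 times higher in the former. After thinning, Gja4 was in 54.8% (46.1 to 63.3%) and 54.5% (45.2 to 63.5%) and Gja5 in 17.7% (12.02 to 25.4%) and 17.3% (11.3 to 25.4%) of arterial-like cells. In hematopoietic cells no thinned share of either gene was above 0.297%. Unthinned, Gja4 was in 84.7% and 80.0% and Gja5 in 40.3% and 44.5% of arterial-like cells, and of the cells with Gja5, 47 of 50 and 44 of 49 also had Gja4.

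Unlike Gja4, Gja5 had a second, low level in reticular-like cells of 2.97 CPM (48 UMIs in 46 cells) and 2.39 CPM (71 UMIs in 65 cells), above the 0.541 and 1.20 CPM of hematopoietic cells. Intervals of the reticular-like (2.19 to 3.93 and 1.87 to 3.02 CPM) and hematopoietic cells (0.218 to 1.12 and 0.671 to 1.98 CPM) were separate in Mouse #1 and overlapped in Mouse #2. Preosteoblast-like cells had 1.23 and 0.594 CPM, 2.404 times and 4.03 times less. Reticular-like cells thus held 20.1% and 20.7% of all Gja5 UMIs. Free RNA held Gja5 at 4.47 and 5.31 CPM, above this low level in both mice, and Gja4 at 18.6 and 9.07 CPM. Overlap with Gja5 was taken over whole gene spans, and exons were not compared. RNA of the overlapping genes may not be told apart from Gja5 if strand was not used.

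**Figure D4:**
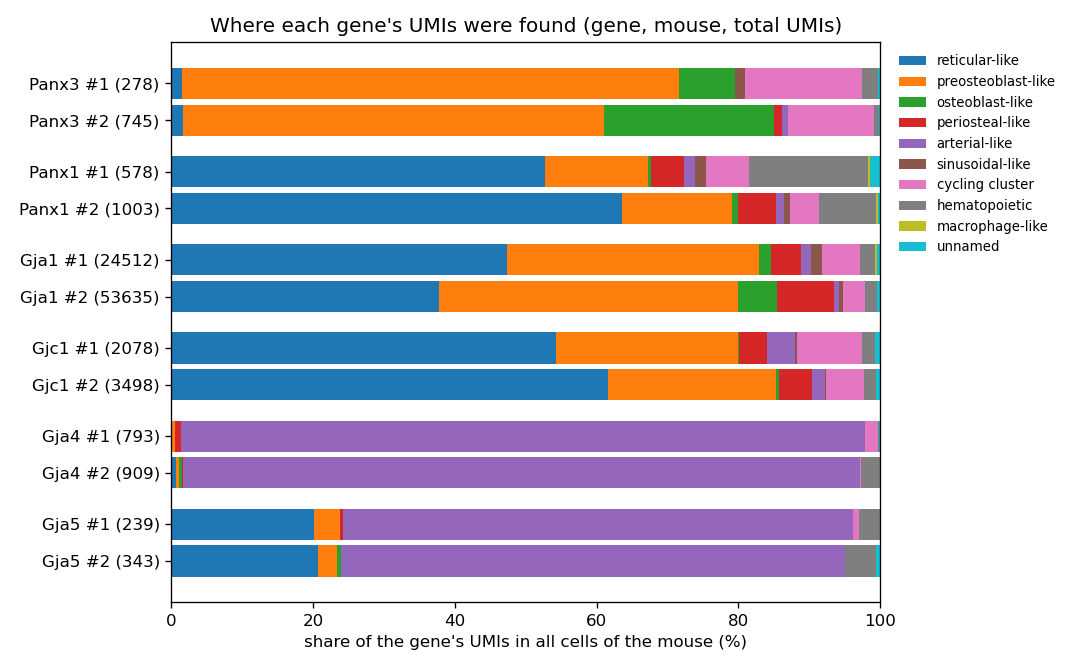
Share of each gene's UMIs that lay in each class, in percent of its UMIs in all cells of a mouse, whose total is given beside the gene. Shares follow the number of cells and their depth as well as the level. Gja4 lies almost wholly in arterial-like cells (96.5% and 95.5%), and Panx3 in preosteoblast-like cells (70.1% and 59.5%), osteoblast-like cells and an unnamed cluster led by mitotic genes.

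Against reticular-like cells, both endothelial-like classes summed had less Gja1 (-0.98 ± 0.11, SE), Gjc1 (-0.93 ± 0.14) and Panx1 (-1.12 ± 0.20) and more Gja5 (5.27 ± 0.23) on the log2 scale. The classes were split, since Gja1 and Panx1 were low in arterial-like cells but not in sinusoidal-like cells, and of the reticular-like, arterial-like and sinusoidal-like classes the last had the least Gjc1. Both reticular and preosteoblast marker RNAs were higher in sinusoidal-like than in arterial-like cells (above), Gja1 was highest in preosteoblast-like cells by share of UMIs, and the part of these RNAs in the split was not tested.

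The other genes of the channel and ATP pathway were followed in a list of 43, of which 42 were among the features. This list, too, was chosen with earlier results of these data known. Its calls in the class contrasts are therefore a description of the list, and their share beside that of all genes is no independent result. None of the 17 genes for other connexins and Panx2 reached 5 CPM in any class of either mouse, and 8 of them had no UMI in the 6 classes. In preosteoblast-like against reticular-like cells, 18 list genes could be tested and 12 passed the quasi-likelihood test of edgeR at an adjusted p under 0.05, 6 in each direction, beside 29.2% of all genes tested (14.1% higher and 15.1% lower). The list's median log2 fold change was -0.25 and that of all genes 0.0036. Among 9 junction partners tested, 5 rose and none fell. Those that rose included Tjp1 (0.59 ± 0.14 SE, edgeR adjusted p 0.025), a scaffold protein that binds connexins at the membrane, Cdh2 (0.56 ± 0.11), the N-cadherin of adherens junctions, and Dbn1 (0.50 ± 0.10) and Ezr (1.32 ± 0.16), which tie membrane proteins to actin. Among 9 genes of extracellular ATP and adenosine, 6 fell and 1 rose. P2ry14, a receptor for UDP-sugars, fell from 26.0 and 31.9 CPM to 3.02 and 2.84 CPM (-3.38 ± 0.18, adjusted p 0.00026). P2rx4, an ATP-gated channel, fell from 127 and 129 CPM to 48.8 and 49.4 CPM (-1.44 ± 0.08). Adora2a (-2.55), Entpd1 (-2.12), P2ry1 (-0.72) and Enpp1 (-0.66) also fell. Under some alternatives the calls of Enpp1 (-0.60 to -0.65, edgeR adjusted p up to 0.081), P2ry1 (-0.69 and -0.72, adjusted p 0.089 by edgeR and 0.10 by DESeq2), Entpd1 (-1.48, 0.054) and Cdh2 (0.58, 0.12) were lost, in the same direction. Nt5e, which makes adenosine from AMP, rose by 2.41 ± 0.32 at a low level, from 0.804 and 0.607 to 3.70 and 3.96 CPM. With the mouse as a block, P2rx7 passed as well (1.97, adjusted p 0.0092).

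In osteoblast-like against preosteoblast-like cells 4 of 14 tested list genes passed, beside 32.9% of all genes (17.8% higher and 15% lower). Cdh2 rose (0.86 ± 0.16, edgeR adjusted p 0.0060), and Dbn1 (-0.96 ± 0.25), P2rx4 (-1.002 ± 0.20) and Enpp1 (-2.19 ± 0.48), the enzyme that makes pyrophosphate from ATP, fell. Dbn1 had no call with DESeq2 (-1.15, adjusted p 0.062). The list's median was -0.74 and that of all genes -0.052. Library totals in place of TMM gave 0 higher and 11 lower list genes, with 62.2% of all genes passing. Cdh2 then had no call, and its level was 367 and 444 CPM in the osteoblast-like class, which overlaps the 438 and 375 CPM of the preosteoblast-like class.

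In endothelial-like against reticular-like cells 17 of 21 tested list genes passed, 10 higher and 7 lower, beside 50% of all genes (25.3% higher and 24.7% lower). The list's median was 0.93 and that of all genes -0.043. Entpd1, which clears extracellular ATP and ADP, stood at 277 and 237 CPM in arterial-like and 108 and 135 CPM in sinusoidal-like cells against 4.20 and 4.35 CPM in reticular-like cells (5.66 ± 0.13, edgeR adjusted p 1.56e-06). Tjp1 was at 220 and 191 and at 180 and 180 CPM in the same classes against 35.3 and 42.3 CPM (2.30 ± 0.14). Cav1, Nov, Dbn1, Ezr, P2rx7, P2ry2 and P2ry6 were among the others that rose. Nov had 0 and 4 UMIs in reticular-like cells, and P2ry6 gave no ratio to reticular-like cells in either mouse. Genes so low there entered the test through the endothelial-like class and could only be called higher, so the count of higher genes holds calls of fixed direction. The same holds for list genes that were very low in either class of the other contrasts. Cav1, the scaffold of caveolae, was in arterial-like cells at 653 and 747 CPM and in sinusoidal-like cells at 0 and 18.7 CPM, and P2ry2, an ATP receptor, at 43.5 and 42.2 CPM against 2.17 and 6.996 CPM. Nov, a matricellular protein known to bind connexin 43, was at 69.3 and 58.0 CPM in arterial-like cells and 0 in sinusoidal-like cells of both mice. Cdh2, Enpp1, Nedd4, P2rx4, P2ry1, P2ry14 and Src fell.

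Whether the reticular-like cells marked by Cxcl12-creER differed in these genes from unmarked ones was asked by tdTomato, a contrast that the choice of the genes did not use. The threshold was the 99th percentile over the hematopoietic cells in each library, or 7.89 and 14.5 tdTomato UMIs per 10000. These reference cells may include marked cells, since the study found tdTomato+ blood-fraction cells without tamoxifen. The tdTomato- group may therefore hold marked cells as well, which was not tested. That gave 499 tdTomato+ and 721 tdTomato- cells in Mouse #1 and 982 and 1395 in Mouse #2. Gja1 was at 652 CPM in tdTomato+ and 763 CPM in tdTomato- cells of Mouse #1 and at 635 and 716 CPM in Mouse #2. It was lower in tdTomato+ cells of both mice and the groups did not overlap, but the difference of -0.17 ± 0.08 (log2, SE) did not pass (edgeR adjusted p 1.00, and 0.10 with the mouse as a block). Gjc1 had 70.5 and 69.3 CPM in Mouse #1 and 73.4 and 72.2 CPM in Mouse #2, a difference of 0.056 ± 0.080. Panx1 had 18.7 and 19.0 CPM and 22.3 and 20.9 CPM (0.078 ± 0.13). Gja5 was at 3.76 against 2.41 CPM and 2.71 against 2.18 CPM (0.50 ± 0.30). Of the 4 genes that passed the filter on low counts 0 passed the test, and by edgeR 0 had an unadjusted p under 0.05 (1 with the block, 1 on library totals and 0 by DESeq2). Panx3 (2, 2, 6 and 6 UMIs) and Gja4 (0, 1, 0 and 6 UMIs) were too low to be tested. The test itself called 0 of 12168 genes without the block (0%), 212 genes (1.74%) with it and 8 by DESeq2, and 424 genes had an unadjusted p under 0.05 without the block. P2ry14 (0.53 ± 0.08, edgeR adjusted p 0.0076) and Tjp1 (-0.42 ± 0.07, adjusted p 0.014) were the genes of the channel and ATP list that passed with the block, and neither passed without it. This contrast was planned for the 6 described genes only. P2ry14 and Tjp1 are named because they passed that alternative, so they are no result about the list.

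**Figure D5:**
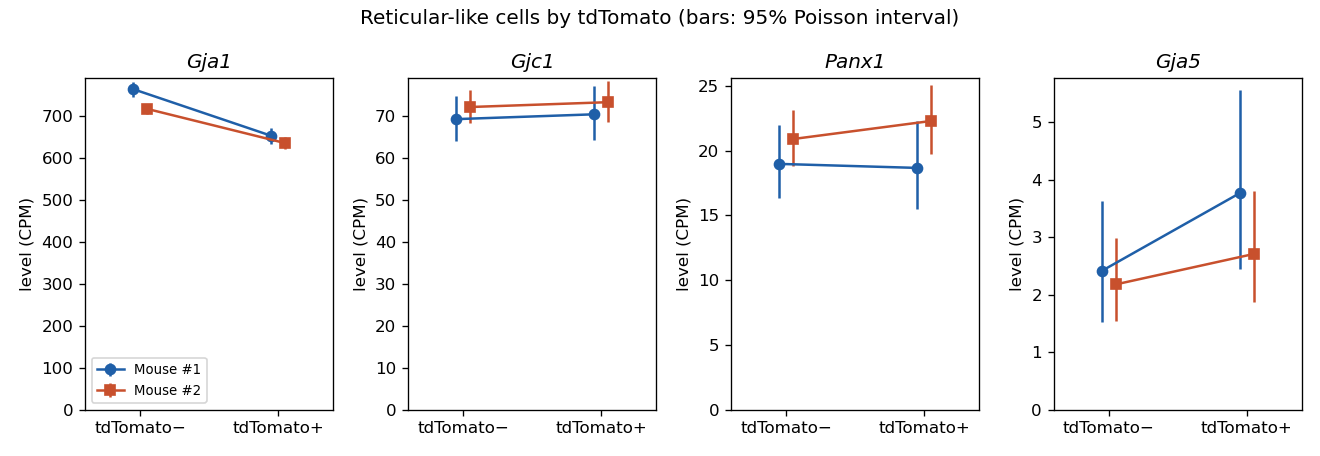
Level in CPM of the 4 genes tested in tdTomato- and tdTomato+ reticular-like cells, with 1 line per mouse, 95% Poisson intervals and axes that start at 0. Gja1 is lower in tdTomato+ cells of both mice (652 against 763 CPM, and 635 against 716 CPM), and the intervals of the other genes overlap.

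The genes with the most similar pattern were sought over the 12 sums of 6 classes and 2 mice, among 10180 genes with a mean of at least 5 CPM, by Pearson's r of log2(CPM + 1). The 12 points share libraries and mice, so r is a description. For Panx3 these were Cyfip2 (0.97), Insc (0.96), Rab27b (0.96), Ddb1 (0.96) and Alpl (0.95), and for Panx1 Itih5 (0.99), Adam9 and Sult1a1 were among them. Gja4 went with Prom1 (1.00), Car7, Jag2, Mcf2l and Ptprr, and Gja5 with Mob2 (0.98), Ssu2, Tmem255b, Jag2 and Car7, so that Jag2 and Car7 were in both lists. Gja1 had the least close neighbors, Epb41l3 (0.94), Cul7, Ccng1, Tmem120a and Dennd4a, and Gjc1 went with Ebf1 (0.98), S100a11, Ndufb3, Camk2g and Trmt1l. Among the 6 genes themselves, Gja4 and Gja5 were closest (0.95), Panx3 and Panx1 had -0.63, and Gja1 had -0.89 with Gja4 and -0.90 with Gja5.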

How the data were processed

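The data were raw UMI counts per feature and barcode, which the authors deposited unfiltered for 2 libraries and made with Cell Ranger 3.0.0 (file headers) on mm10. Annotation release and strand setting are not given in the sources used here. Barcodes were kept from 1000 detected genes upward if mitochondrial UMIs made up 15% or less. The 6 genes and all lists were chosen with earlier results of these data known. Counts were scaled to 10000 per cell and log-transformed, depth was regressed out, and 30 components of 2000 variable genes (the described genes, list genes and reporters left out) gave a 15-neighbor graph, clustered by leidenalg 0.10.2 at resolution 0.5. A cluster took the marker list with the largest share of raised markers (1.5 times the mean of the other clusters and detected in 10% of cells, at least 3 markers), and stayed unnamed where another list led its top 10 genes. It also stayed unnamed with 3 cycling genes among them, or if it was shallow and none of them was its own marker. By depth, 1 cluster of 72 and 146 cells (median 3186 UMIs) stayed unnamed, with 5 of 8 reticular markers raised. The naming rule was set after seeing the data, and names may differ from the study's. Doublets were kept. Scrublet in scanpy 1.11.5 called 6 and 6 cells (0.218% and 0.131%), so its threshold had not worked, and removing the top 0.8% per 1000 cells (60 and 168 cells) was an alternative. In thinned shares, 6 and 21 cells under 2000 UMIs were left out. Sums per mouse and class were tested with edgeR 4.0.16 (R 4.3.3, TMM, filterByExpr, quasi-likelihood, Benjamini-Hochberg over all genes) and checked on simulated data. The mouse was the replicate (2 against 2), and p-values measure the spread between these mice. Each SE is the log2 fold change divided by the square root of the quasi-likelihood F value, an approximate measure. Free RNA was the sum of barcodes with 1 to 100 UMIs. The classes of a mouse come from 1 animal, and the deviations of the same mouse correlated across genes at 0.31, 0.099, 0.14 and 0.52 in the 4 contrasts. DESeq2 1.42.0 was an alternative. Alternatives were the mouse as a block, DESeq2, no low-count filter, 1 fit over all classes, other limits on cells, Leiden resolution 1 and each mouse left out. All 6 genes are named, list genes where called, and the 5 most similar genes for each, except some genes that are not reported here. Ccn3, another symbol of Nov, was on the list and not among the features.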

Additional observations from a re-analysis of the deposited data

How the results depend on the processing

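The tests rest on 2 mice, osteoblast-like and sinusoidal-like levels on few cells, and Panx1, Gja5 and Panx3 outside their main classes on few UMIs. Each mouse alone gives a value with no test. The use of library totals in place of TMM, and of TMM for the levels, was chosen after seeing the data. Counts of called list genes stayed within 1.5 times of the value given under every alternative except 1: library totals gave 11 in place of 4 called genes for osteoblast-like against preosteoblast-like cells. With the replicate block the counts were 13, 4, 18 and 0, against 12, 4, 17 and 0. In the class contrasts the block changed 2 calls, P2rx7 in preosteoblast-like cells (above) and Csnk1d in endothelial-like cells (0.43, edgeR adjusted p 0.0094), and by tdTomato it added P2ry14 and Tjp1 of the list (above). P2rx7 passed under 3 other alternatives and Csnk1d under 2.

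Levels that moved by more than the spread of the mice did so mainly with TMM. Means over mice became 81.5 CPM for Panx3 and 1403 CPM for Gja1 in osteoblast-like cells, 25.1 CPM for Panx3 in preosteoblast-like cells, 646.0 CPM for Gja1 and 65.8 CPM for Gjc1 in reticular-like cells, 468 CPM for Gja4 in arterial-like cells, and 5.123 CPM for Panx1 and 8.80 CPM for Gjc1 in osteoblast-like cells. Gjc1 in osteoblast-like cells was 4.91 CPM under the stricter limits on cells, 6.163 CPM under the looser ones and 5.93 CPM without the highest Scrublet scores, against 5.84 CPM, beside mice at 5.85 and 5.83 CPM.

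The differences that changed sign had no call with TMM and all cells, and with library totals Ezr and Tjp1 were called lower. The cause was not tested. In osteoblast-like against preosteoblast-like cells Ezr became -0.0059 with the block, -0.16 with DESeq2, -0.054 with no filter, -0.034 in 1 fit over all classes, -0.81 with library totals (adjusted p 0.049), -0.097 without the highest Scrublet scores and -1.22 without replicate 2 (0.25 without replicate 1). Src became 0.046 with the block, 0.015 under the looser limits, 0.011 without the highest Scrublet scores, and 0.019 and 0.12 without replicate 1 and 2. Tjp1 became -0.60 with library totals (adjusted p 0.042) and -0.13 without replicate 2 (0.27 without replicate 1). Without replicate 1 and 2 Nedd4 was -0.24 and 0.030, and P2ry14 -2.14 and 0.28. In preosteoblast-like against reticular-like cells Cav1 became 0.17 under the stricter limits and Src 0.0048 with library totals. Calls were lost for Cdh2 (adjusted p 0.12 in 1 fit over all classes), Enpp1 (0.081 in that fit, 0.078 with library totals, 0.056 without the highest Scrublet scores), Entpd1 (0.054 under the stricter limits) and P2ry1 (0.10 with DESeq2, 0.089 in 1 fit) in that contrast, and for Dbn1 (0.062 with DESeq2) in osteoblast-like cells. Adjusted p of Gja1 by tdTomato ranged from 0.10 to 1.00 over the alternatives.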

Other observations

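A cluster that took no class name, led by mitotic genes and Acta2, held 65 cells of Mouse #1 and 76 of Mouse #2. The preosteoblast list matched it best, with 7 of 8 markers raised, as in both preosteoblast-like clusters. It stayed unnamed because Acta2, from the marker list for mural cells, was among its top 10 genes and no gene of the preosteoblast list was. The rule on cycling genes did not apply, since none of that list was among the top 10. Panx3 stood there at 28.6 and 52.4 CPM, Gja1 at 821 and 963 CPM, Gjc1 at 120 and 108 CPM and Panx1 at 21.8 and 24.2 CPM. Its Panx3 was within the range of the preosteoblast-like and osteoblast-like classes (26.7 to 64.9 CPM), and its Gjc1 above every named class in both mice (39.5 to 72.8 CPM in the 4 classes with the most). It held 16.5% and 12.2% of all Panx3 UMIs.

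Panx1 differed among hematopoietic clusters. It was at 16.1 and 19.0 CPM in the myeloid-like cluster led by F13a1 and Ccr2, at 17.5 and 19.97 CPM and 27.2 and 13.3 CPM in the 2 lymphoid-like clusters, and at 0 in the myeloid-like cluster led by Stfa2 and Retnlg in both mice (3 UMIs would be 1.91 and 1.57 CPM). Erythroid-like cells of the cluster led by Car1 had 0.336 and 2.82 CPM. No test was made of these differences.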
